A study of Mus musculus with 2 samples.

Results

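Polycomb repressive complex 2 (PRC2) trimethylates lysine 27 of histone H3, and the resulting mark, H3K27me3, accompanies genes that are held silent. In many cell types the mark lies over the starts of genes for other lineages, where it can form broad domains or short stretches. Here the short stretches were examined, namely the peaks under 10 kb that covered the 5′ end of at least 1 gene. Peaks were counted by name when the authors' annotation placed the peak over a gene start, or placed a whole gene within the peak. The rule kept 921 of 19359 peaks (4.76%). Width and the overlap with a gene start thus chose the peaks, and both are given only as a description.

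The cells were primary rib chondrocytes, the matrix-forming cells of cartilage, from newborn wild-type CD1 mice. They were released with collagenase and grown overnight in serum. There was 1 library of DNA precipitated with an H3K27me3 antibody (17237574 filtered tags) and 1 input library of unprecipitated chromatin (17004082 filtered tags). Libraries were grouped by their titles, which the antibody tags contradict, since the tag of the input reads H3K27me3 and that of the precipitated DNA reads input. No library was repeated, so no value has a spread between samples and no test between groups was made. Intervals below cover only the spread over peaks or counting error within this peak list. A peak list holds no RNA, so the identity of the cells could not be checked against their expressed markers.

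The 921 peaks held 994 gene records of the authors' annotation, of which 728 carried a symbol. The peak ran over the start of the gene in 787 records and held the gene whole in 207. Most peaks (856) covered 1 gene record, 59 covered 2, and 6 covered 3 or 4. Among the records with a symbol, 659 were protein-coding genes, 41 long non-coding RNA genes, 11 microRNA genes and 5 ribosomal RNA genes by the RefSeq gene table of GRCm38.p6. Of 21900 protein-coding genes in that table, 661 had a start covered by these peaks, a background of 3.02% against which the gene groups below are read. Peaks of 10 kb or more covered the starts of a further 315. Together these short peaks spanned 3.93 Mb, or 8.38% of the covered length of the list.

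The start regions of 4 genes are printed as examples. The windows run from 250 bases before to 50 bases after the start (RefSeq, GRCm38.p6), each lay wholly inside its peak, and capitals mark every CG, the letters of a CpG site, which read the same on both strands. Lrrc26, an auxiliary protein of a potassium channel, had the second highest fold enrichment of all these peaks (chr2:25289661-25289960, plus strand). Fcgr3, first by pileup among genes with a window, is not printed because its window lay outside its peak. Ascl5, a basic helix-loop-helix factor, led the transcription factor list among genes with a window (chr1:136050554-136050853, plus strand). Sp9 and Sall1, zinc finger factors of limb and organ development, were chosen after their values were seen, as the genes of highest fold in a CG-rich and an intermediate window (chr2:73271676-73271975, plus strand, and chr8:89044113-89044412, minus strand).
Lrrc26: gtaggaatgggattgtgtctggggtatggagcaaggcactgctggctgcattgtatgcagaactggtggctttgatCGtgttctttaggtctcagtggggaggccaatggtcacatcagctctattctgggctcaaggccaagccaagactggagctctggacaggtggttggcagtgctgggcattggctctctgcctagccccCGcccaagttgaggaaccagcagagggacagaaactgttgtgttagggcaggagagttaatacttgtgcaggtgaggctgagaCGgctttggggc
Ascl5: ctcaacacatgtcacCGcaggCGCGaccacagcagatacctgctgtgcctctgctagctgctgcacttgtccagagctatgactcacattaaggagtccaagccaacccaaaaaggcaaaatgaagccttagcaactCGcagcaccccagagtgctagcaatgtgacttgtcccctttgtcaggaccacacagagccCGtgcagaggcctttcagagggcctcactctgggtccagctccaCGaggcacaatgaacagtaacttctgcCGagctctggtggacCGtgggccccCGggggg
Sp9: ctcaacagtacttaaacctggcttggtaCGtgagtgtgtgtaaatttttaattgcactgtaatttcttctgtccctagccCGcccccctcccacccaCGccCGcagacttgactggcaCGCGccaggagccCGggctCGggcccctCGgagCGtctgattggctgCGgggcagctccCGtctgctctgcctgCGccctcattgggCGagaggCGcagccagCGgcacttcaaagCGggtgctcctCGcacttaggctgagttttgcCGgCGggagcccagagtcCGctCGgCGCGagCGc
Sall1: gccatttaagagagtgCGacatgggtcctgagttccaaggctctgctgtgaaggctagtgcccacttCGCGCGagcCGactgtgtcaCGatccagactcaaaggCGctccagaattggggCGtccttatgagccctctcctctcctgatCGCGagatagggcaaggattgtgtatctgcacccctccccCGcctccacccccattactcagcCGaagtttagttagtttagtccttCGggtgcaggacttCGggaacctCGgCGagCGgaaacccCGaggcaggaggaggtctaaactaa

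The wide spread of CG over these windows was set by the choice of Sp9 and Sall1 for their CG class and is no result. The Lrrc26 window held 3 CG and that of Ascl5 held 9, whereas Sall1 had 18 and Sp9 had 25. Of all RefSeq windows, 94.2% held at least 1 CG and the median was 7. As many CG as in Sp9 occurred in 18.4% of windows, and as many as in Lrrc26 in 76.1%. A comparison of CG content over all covered genes was void, because only 498 of the 661 protein-coding genes (75.3%) had a window in the table, under the 80% required.

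Peaks over a gene start were wider than other short peaks. Their widths had a median of 3.79 kb (95% interval 3.46 to 4.23, n = 921) with quartiles of 2.06 and 6.17 kb. Peaks under 10 kb inside a gene had a median of 1.19 kb (n = 6493) and those only upstream of genes a median of 1.32 kb (n = 1754). Under 1 kb lay 7.27% of the start peaks, against 40.6% of the peaks inside genes. The share of peaks that covered a start rose with width, from 0.922% of peaks under 1 kb to 38.2% of those of 9 to 10 kb, and was 51.9% at 10 kb or more. A wider peak covers more sequence, and the part of this in the rise was not tested.

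**Figure D1:**
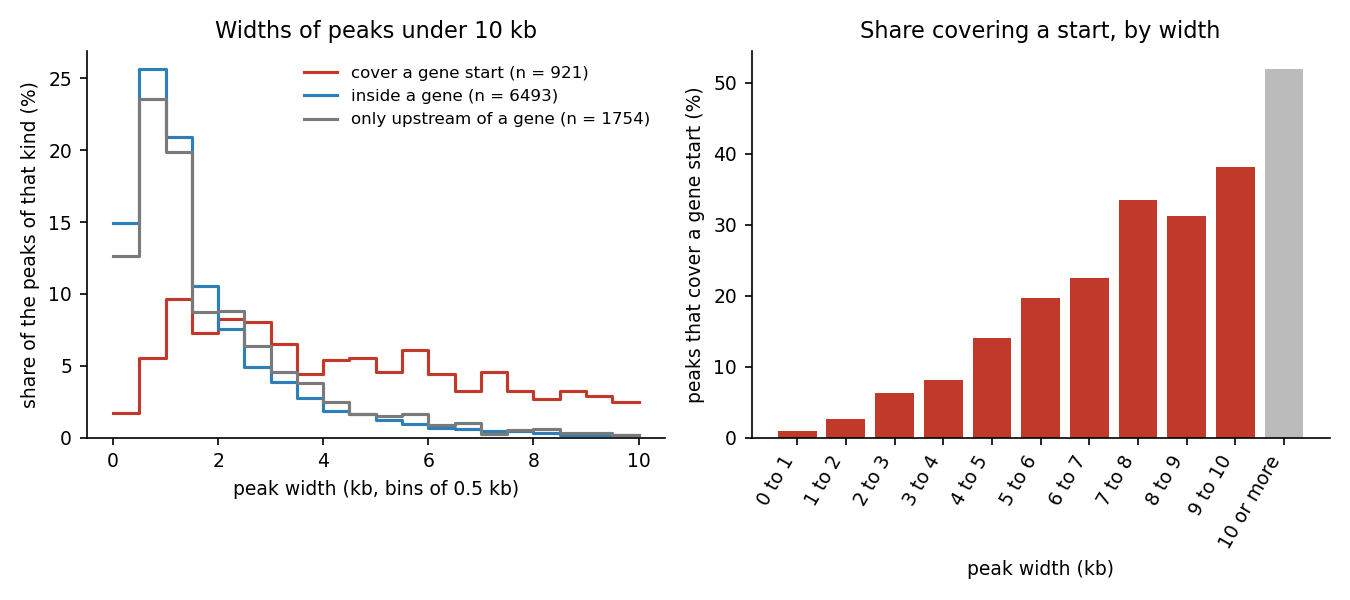
The left panel plots the share of peaks (%) in each 0.5 kb bin of width (kb) for peaks under 10 kb that cover a gene start, lie inside a gene or lie only upstream of one. The right panel plots the share of all peaks (%) that cover a gene start in each width class (kb), with peaks of 10 kb or more in grey. Start peaks spread out to 10 kb, and the bars climb from 0.922% to 38.2% across the red classes.

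The narrowest start peaks had the length of a modelled fragment. En1, a homeobox gene of the midbrain and limb, was covered by a peak of 294 bp, and a peak of 10 kb or more lay 1216 bp away. Its pileup, the average depth of ChIP fragments along the peak, was 9.97. Blk, a kinase of B cells, and Clip4 also had peaks of 294 bp, with pileups of 10.8 and 11.5. At the other end, the peak over Lyzl6, a lysozyme-like gene, reached 9903 bp, followed by Marveld3 (9879 bp), the H2-T18 and H2-T3 entry (9860 bp), the histamine receptor gene Hrh1 (9854 bp) and Rab37 (9840 bp). Just beyond the limit, and so not among these peaks, lay Caly (10003 bp), Nol4 (10027 bp), Kcnk15 and Barhl1 (10047 bp each) and Cga (10061 bp). Fold enrichment was 3.22, 3.46, 3.81, 3.17 and 3.34 in the first 5 and 3.63, 3.28, 3.49, 3.54 and 3.54 in the last 5, so the ranges overlapped on the 2 sides of the limit.

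Enrichment over input was low throughout. Fold enrichment is the pileup plus 1 over the input background plus 1, as the authors' caller gave it. Its median was 3.28 (95% interval 3.26 to 3.30) and its range 2.12 to 4.21. The median was 3.15 for peaks inside genes, 3.17 for peaks only upstream and 3.53 for start peaks of 10 kb or more (n = 348). At least 3.5-fold were 157 start peaks (17.0%), against 9.56% of all peaks. The q-value averaged over the peak was 0.05 or less in 750 (81.4%), against 60.8% of all peaks. Pileup had a median of 11.6 fragments and ran from 9.86 to 36.2. All these values come from the same ChIP and input contrast that defined the peaks and support nothing beyond description.

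In each of the 3 positions the median fold was higher at 9 to 10 kb than below 1 kb, and the order of the positions changed between width classes. At 2 to 3 kb the median was 3.20 for start peaks, 3.19 for peaks inside genes and 3.21 for those only upstream. At 6 to 7 kb the medians were 3.35, 3.34 and 3.40, and at 9 to 10 kb 3.42, 3.41 and 3.40. The medians lay farther apart at 5 to 6 kb (3.30, 3.31 and 3.38), at 7 to 8 kb (3.39, 3.34 and 3.32) and at 8 to 9 kb (3.41, 3.34 and 3.47). Below 1 kb the 67 start peaks had a median of 3.06 and the peaks inside genes one of 3.10.

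**Figure D2:**
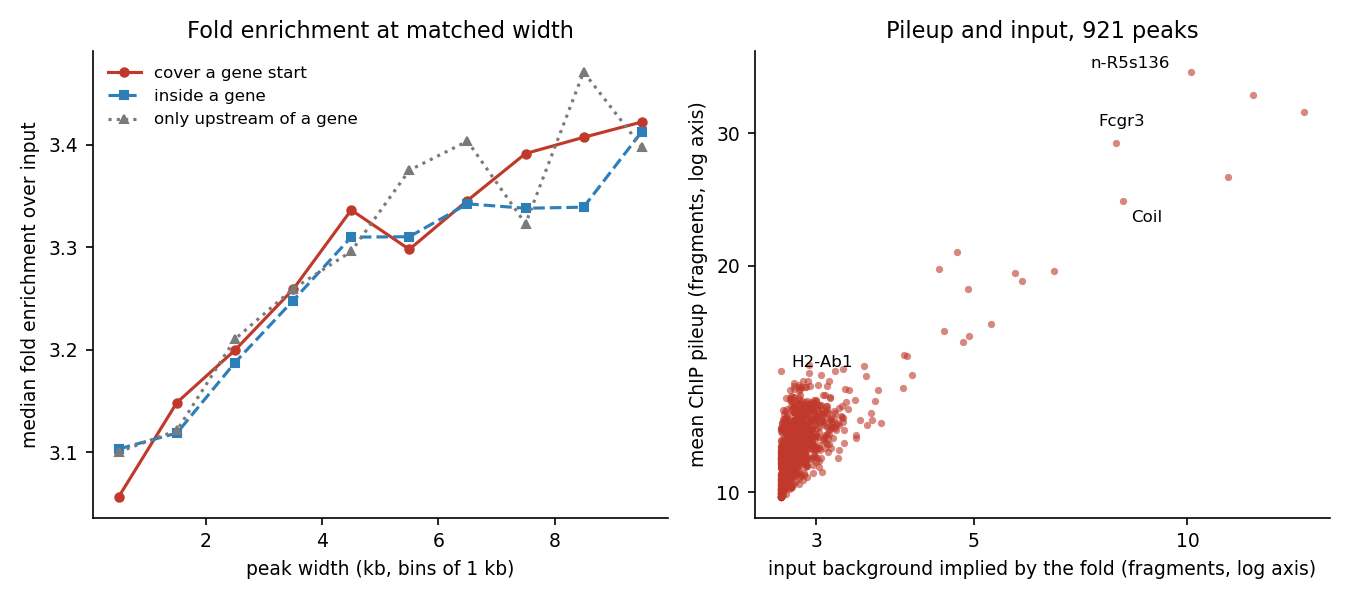
The left panel plots the median fold enrichment over input in each 1 kb class of peak width (kb) for the 3 positions under 10 kb, on an axis that does not start at 0. The right panel plots, on log axes, the mean ChIP pileup (fragments) of each of the 921 peaks against the input background implied by its fold (fragments). The 3 lines start near 3.1 and end near 3.4 and cross in between. Every peak with a pileup of 15 or more has an implied input above 3.5, in large part because that input is computed from the pileup.

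The peaks of highest pileup also had a high implied input. The input background that the fold implies is computed from the pileup and the fold, and folds ran only from 2.12 to 4.21. A high pileup thus brings a high implied input in large part by arithmetic. The median was 2.80 fragments over the start peaks, close to the genome-wide value of 2.67. All 18 peaks with a pileup of 15 or more had an implied input of at least 3.5. A peak over the 5S ribosomal RNA genes n-R5s136 and n-R5s138 had a pileup of 36.2, an implied input of 10.1 and a fold of 3.35. Fcgr3, an Fc receptor gene of myeloid cells, had a pileup of 29.1, an implied input of 7.92 and a fold of 3.38. For Coil, which encodes the Cajal body protein coilin, the pileup was 24.4, the implied input 8.12 and the fold only 2.79. The peaks of lowest fold, 2.12 and 2.20, covered genes without a symbol on chromosomes 2 and 11 and had implied inputs of 14.6 and 11.4. Repeated or amplified sequence as a source of the high input was not tested.

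Among the peaks over genes with a symbol, the highest folds did not come with a high implied input. H2-Ab1, a chain of the class II histocompatibility molecule of antigen-presenting cells, led with a fold of 4.21, a pileup of 14.5 and an implied input of 2.68, close to the genome-wide value. Lrrc26 followed with 4.01 (pileup 14.8), then Prss16, a thymus protease gene, with 3.94 (pileup 14.0). Cd300ld, a receptor gene of myeloid cells, had a fold of 3.91, and Dlx6os2, a non-coding RNA gene antisense at the Dlx6 locus, also 3.91. Their widths ran from 1.99 kb (H2-Ab1) to 4.36 kb (Prss16), well under the limit of 10 kb.

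Reach around the start differed between genes whose start was run over and genes held whole. Over all records, upstream of the start lay a median of 1.71 kb of peak (95% interval 1.56 to 1.85, n = 994 records) and downstream 1.62 kb (1.44 to 1.82). The downstream reach was the longer in 497 of 994 records (50%), a share that mixes both kinds. Where the peak ran over the start only, the medians were 1.77 kb upstream and 1.42 kb downstream, with the downstream reach longer in 45.7% (95% Wilson interval 42.3 to 49.2, n = 787). For genes held whole they were 1.38 and 2.44 kb, with the downstream reach longer in 66.2% (59.5 to 72.3, n = 207), where the downstream part includes the gene itself. Peaks of 10 kb or more that ran over a start only had medians of 8.19 and 6.70 kb. A short peak that ran over a start overlapped a median of 9.15% of the gene. At least 1 kb on both sides was reached in 446 records (44.9%) and at least 200 bp in 820 (82.5%).

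**Figure D3:**
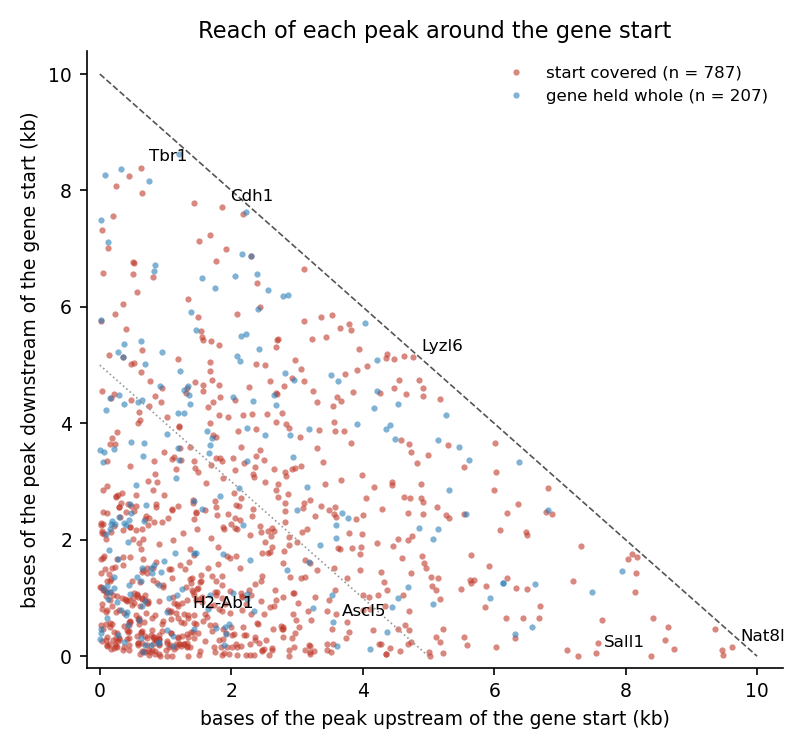
Each point is 1 gene record, with the bases of the peak upstream (kb, horizontal) and downstream (kb, vertical) of the gene start, in red where the peak covers the start and in blue where it holds the gene whole. Points on the dashed line belong to peaks of 10 kb and points on the dotted line to peaks of 5 kb. Downstream reach was the longer in 45.7% of the red points and in 66.2% of the blue ones, and Nat8l and Tbr1 are the records with a symbol that reach farthest upstream and downstream.

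The extremes of reach were 1-sided. The peak at Nat8l, which makes N-acetylaspartate in neurons, extended 9613 bp upstream and 161 bp downstream of the start. Similar upstream peaks lay at Xkr7 (9476 and 13 bp), the entry of Adamtsl5 (9469 and 108 bp), Rab37 (9364 and 475 bp) and Fbxo41 (8743 and 126 bp). In the other direction the peak of Tbr1, a T-box factor of the cerebral cortex, extended 628 bp upstream and 8394 bp downstream. Btnl4 (317 and 8361 bp), Bcas3os1 (448 and 8245 bp), Hapln4 (747 and 8169 bp) and 1700024G13Rik (241 and 8085 bp) came next. All of these peaks had another peak nearby, at gaps from 1199 bp (Xkr7) to 2905 bp (Btnl4). The reach is therefore that of the called peak, and whether the mark went on beyond the gap was not tested.

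In a minority of genes the called peak had an edge close to the start. Whether a further peak lay beyond that edge was not examined for them. Among the 728 records with a symbol, 35 (4.81%) had 2 kb or more of peak upstream but under 200 bp downstream, and 24 (3.30%) showed the opposite. Sall1 had 7548 bp upstream and 57 bp downstream, so that its peak ended just past the window printed above. The same form was seen at Pcdh8, a protocadherin gene (8388 and 9 bp), Foxd1, a forkhead factor of the kidney stroma (7105 and 105 bp), Gjb6, a connexin gene (4573 and 87 bp), and Bmp3 (3117 and 112 bp). Peaks that began at the start and ran into the gene included those of Rtbdn (117 bp upstream and 7009 bp downstream), Dpysl5 (13 and 5752 bp) and Areg, a growth factor gene (189 and 3755 bp). These examples were chosen after their values were seen, among genes whose start in the gene table lay within 200 bp. The starts of the protein-coding records, 33 of the 35 and 20 of the 24, were compared with the gene table. They lay within 200 bp in 20 and 11 and over 1 kb off in 7 and 6. Of the 659 protein-coding records, 91 (13.8%) had a 5′ end over 1 kb from that of the gene table. Of the genes named in the text, these were Clip4, Btnl4, Coil, Hoxb4, Ccdc64b, Ascl4, Wnt6, Fgf11, Ccl4, Slitrk3, Slit2, Kcnj3 and the entry of several symbols with H2-T18 and H2-T3, and for them a covered start is that of the deposited record. The distance exceeded the width of the peak for Wnt6 (17551 bp), Ccl4 (13961 bp), Kcnj3 (24173 bp), Ccdc64b (15919 bp), Clip4 (12274 bp), Coil (3682 bp) and the H2-T18 and H2-T3 entry (33788374 bp, so that the table gene it was matched to lies elsewhere on the chromosome).

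Few peaks covered the starts of several named genes. Of 83 pairs of gene records that shared a peak, 39 ran toward each other from opposite strands, 37 lay on the same strand and 7 ran apart. Both genes had a symbol in 8, 6 and 4 of these. Every pair within a peak was counted, so the pairs are not separate loci. Arrays such as the 5S genes, and a second record of Mir10a, add to the same-strand count. Dll4, a Notch ligand, and the antisense transcript Gm14207 had starts 409 bp apart in 1 peak of 4.60 kb with a fold of 3.80. Uchl1, a ubiquitin hydrolase of neurons, and Uchl1os had starts 398 bp apart. The starts of Mad2l2 and Draxin, an axon guidance gene, lay 313 bp apart. Hoxb4 and Mir10a lay on the same strand 481 bp apart in a peak of 7.39 kb. Without strand in ChIP DNA, the signal of such pairs cannot be told apart.

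Start peaks rarely stood in runs. Another start peak within 20 kb was found for 99 (10.7%), and there were 6 runs of 3 or more. Hoxb6, Hoxb5 and Hoxb4, neighbouring homeobox genes, belonged to the longest run, of 5 peaks (chr11:96290502-96356057), with folds of 3.40, 3.23 and 3.38. A run of 3 covered Mmp25, Ccdc64b and Cldn6 (chr17:23643919-23683045), with folds of 3.58, 3.48 and 3.53. Counting peaks of every kind, 624 start peaks (67.8%) had another peak within 5 kb, against 65.3% of all peaks. A peak of 10 kb or more lay that close to 43 (4.67%), against 5.34% of all peaks. Among the 43 were the peaks of En1, Lhx9, Wnt6 and Hoxb6, with gaps of 1216, 1251, 1283 and 1556 bp. Of the named records, 502 (69.0%) were joined to at least 1 other peak, up to 73 peaks at the channel gene Asic2, whose start peak was 0.668 kb wide. No matching share over other genes or peaks was computed for this 69.0% or for the 10.7%, so neither is read as a trait of start peaks.

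In 4 pooled lists of regulatory and membrane protein genes the share of starts under short peaks lay above the protein-coding background of 3.02%, as a description without a test. Transcription factor genes divided differently from the rest. Of 407 such genes, 34 (8.35%) had a start under a short peak and 134 (32.9%) under a peak of 10 kb or more, so short peaks made up 20.2% (95% Wilson interval 14.9 to 26.9) of the covered starts. Over all protein-coding genes that share was 67.7% (64.7 to 70.6). Signalling genes had 24 of 258 starts under short peaks (9.30%), axon guidance and adhesion genes 13 of 203 (6.40%), and ion channel and neurotransmitter receptor genes 28 of 284 (9.86%). In these 3 groups short peaks made up 70.6%, 81.2% and 71.8% of the covered starts.

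**Figure D4:**
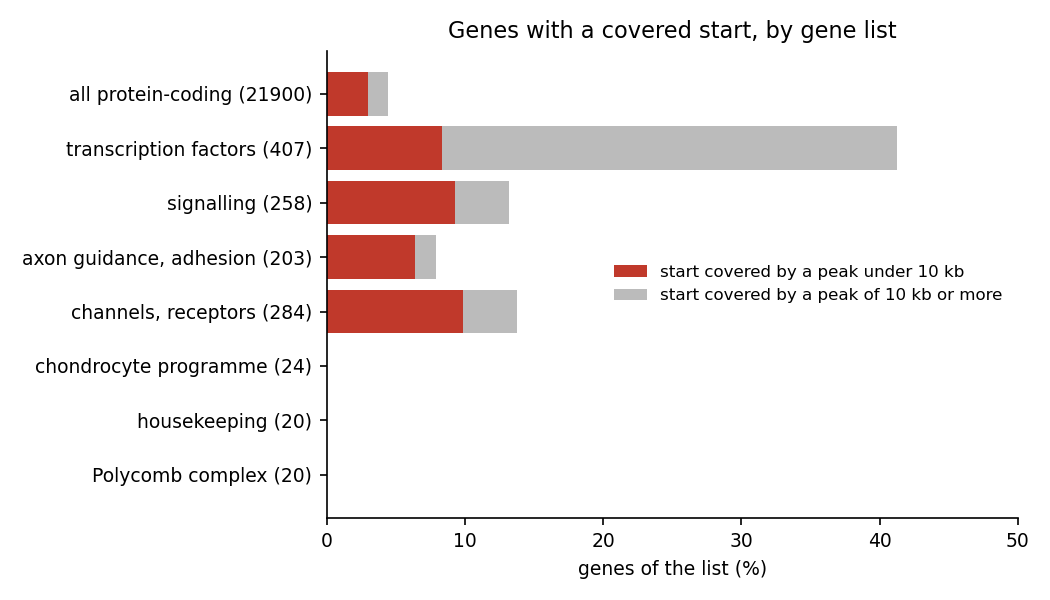
Bars give the percentage of genes in each list, with the number of genes in brackets, whose start was covered by a peak under 10 kb (red) or by a peak of 10 kb or more (grey). Transcription factors combine 8.35% in red with 32.9% in grey, whereas the red part is the longer for all protein-coding, signalling, adhesion and channel genes, and the last 3 lists have no bar.

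Within the transcription factor list, 32 of the 34 genes (94.1%) had a peak whose mean q was 0.05 or less, against 84.9% of all covered protein-coding genes, and 13 (38.2%) a fold of at least 3.5, against 18.6%. The median fold was 3.41 and the median width 5.89 kb, against 3.30 and 4.43 kb over all covered protein-coding genes. Prdm14, a pluripotency factor, had a fold of 3.85 with a peak of 6.46 kb, Ascl5 also 3.85 (4.14 kb), Sall1 3.83 (7.61 kb) and Sp9 3.80 (8.28 kb). Lower in the list stood Tal2, a haematopoietic factor, with 2.99 and En1 with 2.99, whose mean q-values of 0.0623 and 0.0895 lay above the cutoff of 0.05. The peaks of these genes reached a median of 2.68 kb upstream and 1.32 kb downstream. By family, short peaks covered 3 of 39 Hox genes (Hoxb4, Hoxb5 and Hoxb6) and broad peaks 22. The corresponding counts were 1 (Pax8) and 8 of 9 for Pax, 1 (Nkx6-2) and 10 of 14 for Nkx, 1 (Lhx9) and 5 of 8 for Lhx and 1 (Sox18) and 5 of 19 for Sox genes. Short peaks were the more frequent for Hes and Hey genes, with 2 (Hes2 and Hes3) and 1 of 9. Forkhead genes are not counted here. No short peak covered a Tbx (13 genes), Gata (6), Irx (6), Dlx (6), Zic (5), Pou (15), Klf (17) or Nr nuclear receptor gene (25), of which broad peaks covered 5, 2, 3, 2, 4, 1, 0 and 2. In a list of 30 basic helix-loop-helix genes (the Neurog, Neurod, Ascl, Atoh, Hand, Tal, Twist, Olig and Nhlh genes and 4 others), Ascl2, Ascl4, Ascl5, Msc and Tal2 had a short peak and 13 a broad one. The list leaves out other genes of the class with a short peak, such as Myod1 (fold 3.51), Mesp1 (3.47), Bhlha9 (3.33) and Mesp2 (2.94).

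Signalling genes were led by Dll4 with a fold of 3.80. Fgf15, a growth factor of the gut and embryo, followed with 3.65 in a peak of 5.93 kb, then Dkk1, a secreted Wnt inhibitor, with 3.61 (6.82 kb) and Fgf11 with 3.55 (2.14 kb). Ligands of the Wnt and bone morphogenetic protein families were represented by Wnt6 (3.53), Wnt3 (3.30), Bmp4 (3.23) and Bmp3 (3.22). Beside these stood the Wnt antagonists Sfrp4 (3.40) and Sfrp2 (3.08), the hedgehog inhibitor Hhip (3.31) and Dkk3 of the Dickkopf family (3.13). Of the chemokine genes, Cxcl12 had a fold of 3.48, Cxcl5 3.09, Cxcl9 3.07 and Ccl4 3.02. The mean q was 0.05 or less in 17 of the 24 peaks (70.8%), against 84.9% over all covered protein-coding genes.

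Among adhesion and axon guidance genes, Slitrk3, a synaptic adhesion gene, had a fold of 3.58 in a peak of 1.58 kb. Pcdh8 had 3.56, Cdh1, which encodes E-cadherin of epithelia, 3.41 and Lrrtm3 3.30. The guidance genes Slit2 (3.25), Sema6d (3.23) and Sema4d (3.20) came after them. A fold of at least 3.5 was reached by 2 of the 13 (15.4%), against 18.6% over all covered protein-coding genes, and a mean q of 0.05 or less by 10 (76.9%), against 84.9%.

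Channel and receptor genes comprised sodium, potassium and calcium channel subunits and receptors for transmitters. Scn4b had a fold of 3.68, Kcnj5 3.59, Kcns3 3.59 and Asic2 3.57. Short peaks covered 8 of 94 Kcn genes, among them the inward rectifier genes Kcnj3, Kcnj5, Kcnj6, Kcnj9 and Kcnj10. Dopamine receptor genes were present with Drd2 (3.32, peak of 7.11 kb), Drd1 (3.28, 1.005 kb) and Drd5 (3.25, 2.42 kb). Mean q was 0.05 or less in 26 of the 28 (92.9%), against 84.9% over all covered protein-coding genes.

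None of 24 chondrocyte genes had a start under a short or a broad peak, and 2 were joined to a peak elsewhere. Over all protein-coding genes, 4.46% had a start under a peak of either kind and 20.7% were joined to any peak, so a count of 0 starts in a list this small is near the background. The list included Col2a1, Acan and Sox9, the collagen, the proteoglycan and the factor that define cartilage. The count was also 0 for 20 housekeeping genes (1 joined to a peak elsewhere) and for 20 genes of PRC2 and PRC1 subunits (7 joined to a peak elsewhere), which is likewise near the background. Of 12 skeletal muscle markers short peaks covered Myod1, the myogenic master factor (fold 3.51), and Myh3 (3.03), and broad peaks 2 more. Of 12 neural markers they covered Tubb3 (3.30) and Snap25 (2.96), and broad peaks 6 more. For 12 blood and endothelial markers the counts were 0 and 2. The short peaks of Myh3 and Snap25 had mean q-values of 0.0691 and 0.0970, above the q-value cutoff. Those of Myod1 and Tubb3, 0.00874 and 0.0256, lay below it. None of the 9 genes tested by ChIP-PCR in the study had a short peak over the start. Wnt10a was the 1 under a broad peak, and 4 of the 9, with Wnt10a, were joined to a peak at some position.

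Other families were counted after the values were seen. Claudin genes, which seal epithelial junctions, had 5 of 23 starts under short peaks (Cldn3, Cldn4, Cldn6, Cldn7 and Cldn23, with folds of 3.36, 3.17, 3.53, 3.41 and 3.74) and none under broad ones. Keratin and keratin-associated genes of skin and hair had 10 of 112, also with none under broad peaks, at folds from 2.98 (Krt9) to 3.44 (Krtap16-1). Olfactory receptor genes had 11 of 1106 (0.995%), below the background of 3.02%, and zinc finger genes named Zfp had 5 of 367 (1.36%). Solute carrier genes had 20 of 375 (5.33%), and collagen genes 3 of 44 (Col6a6, Col13a1 and Col18a1). Neither the number of families looked at nor chance was tested.

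The median length of covered genes lay near that of all genes. By the gene table the 661 protein-coding genes had a median length of 16.0 kb (95% interval 14.2 to 20.1), against 17.1 kb (16.8 to 17.6) over all 21900. The 315 genes with a start in a peak of 10 kb or more had a median of 10.6 kb (9.11 to 13.6). Chromosome 11 held 120 of the start peaks, which were 6.38% of its peaks, chromosome 17 held 59 (7.75%) and X held 13 of 138 (9.42%), against 4.76% over all chromosomes.

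Small gene records lay whole within many of these peaks. Of the 207 records held whole, 108 spanned at most 500 bp, in 98 peaks, and 85 peaks belonged to the start peaks through such records alone. Those 85 were narrower, at 2.39 kb in the median with a fold of 3.24, against 4.04 kb and 3.29 in the others, and 29 of them lay inside another gene. Only 16 of the small records had a symbol in the files. By coordinates and symbols 47 could be identified, namely 11 microRNA records (Mir10a appears under 2 identifiers), 9 ribosomal RNA, 9 small nuclear RNA and 6 small nucleolar RNA records, 9 pseudogenes and 3 joining segments of the T cell receptor alpha locus. The remaining 61 could not be matched.

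Of the 10 microRNA genes held whole, 6 had mature sequences in the RefSeq table, with 12 mature arms and 12 different seeds. The seed, bases 2 to 8, is the part that pairs with target messages, and it stands in capitals. The 4 shown are the better known ones, from the HoxB cluster, brain, sensory organs and the miR-106a cluster in turn (GRCm38.p6, chr11:96317186-96317208, plus strand; chr3:118433901-118433923, plus strand; chr6:30169711-30169732, minus strand; chrX:52742541-52742563, minus strand).
mmu-miR-10a-5p: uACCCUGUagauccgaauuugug
mmu-miR-137-3p: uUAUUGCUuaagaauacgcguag
mmu-miR-183-5p: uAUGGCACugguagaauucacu
mmu-miR-106a-5p: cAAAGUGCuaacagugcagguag

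MicroRNA genes took different positions in their peaks. The hairpin of Mir10a, in the HoxB cluster, lay 6.13 kb from the upstream edge of a peak of 7.39 kb (pileup 13.7, fold 3.38), which also covered the start of Hoxb4. Mir137, a brain microRNA gene, had 4.45 kb of peak upstream (pileup 11.2, fold 3.29). Mir183, a gene of the sensory organ cluster, lay near the downstream edge, with 3.60 kb before its start and 0.183 kb after it (pileup 12.6, fold 3.42). The hairpin of Mir106a sat in a narrow peak of 0.888 kb with a fold of 3.13, which also covered the start of Mir18b of the same cluster. Both genes of neuronal miR-124 held whole had peaks of similar height, Mir124a-1 with a pileup of 11.9 in 7.71 kb and Mir124a-3 with 11.8 in 9.33 kb, and Mir3078 shared the peak of Mir124a-1. Mir670 (fold 3.24), Mir3080 (3.29) and Mir3470a (3.45) completed the set. The 11 microRNA genes, Mir18b included, lay in 9 peaks, of which 9 had a mean q of 0.05 or less and none a fold of 3.5. Over all start peaks those shares were 81.4% and 17.0%, so both counts lie near the shares of all start peaks.

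The 5S ribosomal RNA genes differed within 1 array. A peak of 7.07 kb over n-R5s111 to n-R5s114 (chr8:123557110-123564181) had a pileup of 14.0, an implied input of 2.87 and a fold of 3.88. The peak over n-R5s136 to n-R5s138 (chr8:123598925-123603516) had a pileup of 36.2, an implied input of 10.1 and a fold of 3.35. A peak between them, over n-R5s131, had a pileup of 14.7 and a fold of 3.49. Reads from near-identical copies can be placed on any of them, so the values of single 5S genes are uncertain. The same holds for H2-T18 and H2-T3, which 1 entry joins, and for the H2-D1 entry.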

How the data were processed

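Rib chondrocyte chromatin was measured in 1 H3K27me3 library and 1 input library (17237574 and 17004082 filtered tags, per the file headers). The submitters' processing notes name Bowtie2, CASAVA 1.8.4, MACS2 and mm10. Peaks were called by the authors on the ChIP library against the input with MACS 2.1.0.20140616 in broad mode (q-value cutoff 0.05, fragment length 294 bp), with the larger library scaled to the smaller. Pileup, deposited by the authors for each peak, is a coverage signal. The fold enrichment is a ratio deposited per peak, and the q-values were deposited as −log10 values averaged over the peak, and some averages lie above the cutoff. The authors joined each peak to Ensembl gene records within 5 kb. Peak values were identical in both deposited tables for all 19359 peaks.

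From these files, peaks under 10 kb (10000 bp) with a record placed over a gene start or whole within the peak were taken by name. Reach was counted from the 5′ end of the record on its strand. The implied input was (pileup + 1) / fold − 1. The RefSeq gene table (GRCm38.p6) held 722 of the 733 symbols (98.5%), and small records were also matched by coordinates within 5 bp. Medians carry exact binomial intervals and shares Wilson intervals (95%). With 1 library a group and peaks chosen from the same contrast, no test was made. The members and gene lists were chosen with earlier results of these data known. Named genes are those of the 5 peaks highest in pileup and in fold, the 5 widest and narrowest, the 5 reaching farthest on each side, the 4 genes of highest fold in each list, microRNA genes held whole, those next to the width limit and the ChIP-PCR genes, with other genes chosen after their values were seen. Genes without a symbol are not named. Functions were tested on simulated peaks. Alternatives were 2 stricter q-values, a limit of 5 kb, at least 200 bp on both sides, gene-table starts, a small span of 200 bp and leaving out overlong records. Analyses used Python 3.11.15, pandas 2.3.3, numpy 2.4.6, scipy 1.17.1 and matplotlib 3.10.9.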

Additional observations from a re-analysis of the deposited data

How the results depend on the processing

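No paired analysis was possible because there was 1 library in each group. Of 69 recomputed values, 34 stayed within 1.5 times the count or within the interval of the median or share, and the other 35 follow. With mean q limited to 0.05 the median width was 4.66 kb, pileup 11.9 (11.855), fold 3.33, reach 2.04 kb upstream and 2.09 kb downstream, and 56.3% of peaks had another within 5 kb. At 0.01, 193 peaks remained with 168 symbols, a width of 5.51 kb, a pileup of 12.9 (12.87), a fold of 3.57, a reach of 2.56 and 2.46 kb (2.455), 25 small records held whole, 24.4% with another peak within 5 kb, and 142 protein-coding, 14 transcription factor, 6 signalling, 2 adhesion and 6 channel genes. Under 5 kb there were 575 peaks with 429 symbols, a width of 2.41 kb, a pileup of 11.3 (11.31), a fold of 3.22, a reach of 1.08 and 0.972 kb, and 380 protein-coding, 15 transcription factor, 14 signalling, 8 adhesion and 13 channel genes. With 200 bp on both sides the width was 4.48 kb and the reach 1.88 kb (1.875) upstream and 1.99 kb downstream. Each of these settings takes fewer peaks. Gene-table starts (940 peaks), a small span of 200 bp (74 records) and leaving out overlong records (723 symbols) moved none of the values recomputed under them. Alternatives for promoter CpG content were not run, since that comparison was void. The smallest pileup among the peaks, 9.86 fragments, bounds what this depth could show, so a start without a peak is not shown to lack the mark.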
